A study of Mus musculus with 9 samples.

Results

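The genes described here encode CD antigens, surface molecules of leukocytes, endothelium and other cells that are catalogued by a cluster of differentiation number. They were taken as all probes whose platform gene symbol is Cd followed by a number, with or without further letters and digits. Cd40 was left out, as was Cd2ap, which encodes an adaptor named for binding a CD antigen. The rule gave 60 genes with 1 probe each, out of 8841 genes with a symbol and 10012 probes on the array. A level above the array's floor, or a floor that could not be located, let 41 of the 60 be tested, among 5710 tested probes in all.

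The study concerns lung injury by mechanical ventilation, and total RNA of mouse lung tissue was measured on 9 arrays. In 1 group, called overventilation, 3 lungs had been ventilated mechanically for 3 h with 25 cmH2O. In the next, 3 mg/kg of E. coli lipopolysaccharide (LPS, the endotoxin of the outer bacterial membrane, here of serotype O127:BO) had been injected before 3 lungs were sampled, and 3 lungs were controls. The labels give no strain, sex or age, no route of injection, no time between injection and sampling, and no account of how the controls were handled. Whether each sample is a different mouse is not said either, and the p-values therefore reflect a spread that could be technical. In whole tissue, fewer cells of a type and less RNA per cell cannot be told apart.

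CD antigens are the handles by which blood cells are told apart. T cells carry the CD3 chains beside CD4 or CD8, B cells carry CD79a and CD79b beside their antigen receptor, and monocytes and macrophages carry CD14, which passes LPS on to Toll-like receptor 4. Endothelium displays sialomucins such as CD34, and tetraspanins organise other membrane proteins into clusters on nearly every cell. In the lung the same molecules mark resident macrophages, capillary endothelium and epithelium as well as cells arriving from blood.

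Levels below are log2 ratios to the mean of the 3 controls, so the control mean is 0 for every gene, and no gene's level can be set against another's. The group mean is followed by its SD (n = 3), and differences are limma estimates with standard errors, whose p-values were adjusted over all 5710 tested probes. An array's floor is its value in the most frequent row of ratios. Each probe is scaled to its own controls, so its own floors are that row shifted by a constant. Where the shift was known it was taken out. A value then under the highest floor of the 9, which belongs to overventilation array 3, was set to it. That floor is called the common floor. Some arrays stood apart. LPS array 2 had 291 tested probes more than 1.5 below every other array, against 1 to 41 on the others, and overventilation array 3 had 110 probes more than 1.5 above every other array, against at most 6. Of the lung epithelial markers, 10 of 12 on the array were tested and none was at the floor on all arrays. Among the endothelial markers Cdh5 was at the floor on all 9.

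Overventilation against control asks which antigens differ in lungs ventilated at high pressure. Cd24a, Cd9, Cd274, Cd93 and Cd164 were higher and Cd52, Cd1d1 and Cd59a lower on all 3 overventilation arrays than on any control array. None of the 41 antigens passed limma's test (adjusted p between 0.193 and 0.982), nor did any of all 5710 probes (0%). At an unadjusted p under 0.05 there were 3 higher, Cd24a, Cd9 and Cd274, and 2 lower, Cd1d1 and Cd59a. These 5 of 41 are 12.2%, beside 14.9% of all tested probes. Of all probes, 6.2% were higher and 8.69% lower at that level. The 5 antigens wholly above the controls were 12.2% of the 41, against 9.14% of all probes, and the 3 wholly below were 7.32%, against 10.5%. Both shares are near the background. The median change was 0.15 over the 41 antigens and -0.01 over all tested probes.

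**Figure D1:**
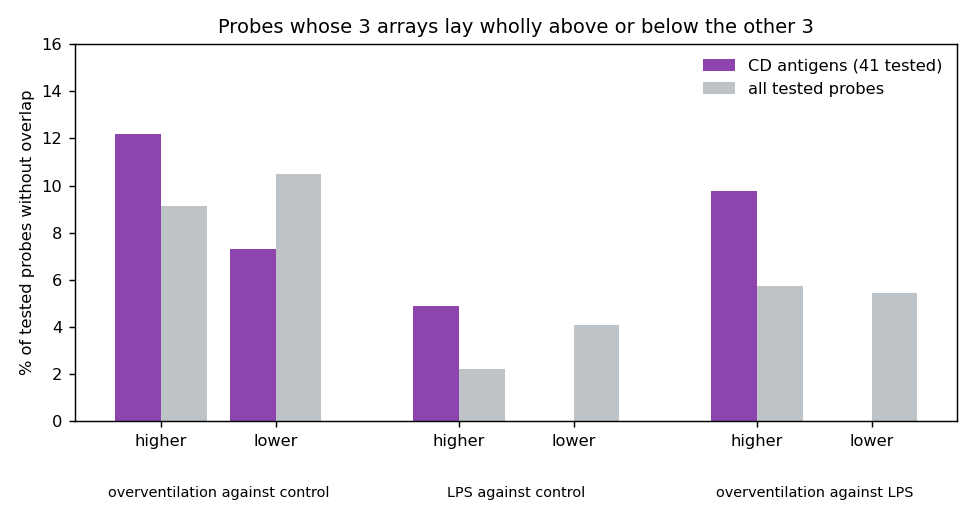
Bars give the percentage of tested probes whose 3 arrays of one group lay wholly above (higher) or below (lower) the 3 of the other, for the 41 CD antigens and for all 5710 tested probes. A missing CD antigen bar stands for 0. For overventilation against control the bars are 12.2% and 9.14% for higher, and 7.32% and 10.5% for lower.

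Promoters are shown for 4 of these 8 genes, those matched by symbol in the RefSeq table used, because their arrays lay clear of the controls. Each runs from 250 bases before to 50 after the gene's start, 5′ to 3′ on the gene's strand, as RefSeq gives it in GRCm38.p6. Capitals mark matches to the motifs searched. Cd9 lies at chr6:125494711-125495010 on the minus strand, Cd274 at chr19:29367188-29367487 on the plus strand, Cd164 at chr10:41519250-41519549 on the plus strand and Cd59a at chr2:104095551-104095850 on the plus strand.
Cd9: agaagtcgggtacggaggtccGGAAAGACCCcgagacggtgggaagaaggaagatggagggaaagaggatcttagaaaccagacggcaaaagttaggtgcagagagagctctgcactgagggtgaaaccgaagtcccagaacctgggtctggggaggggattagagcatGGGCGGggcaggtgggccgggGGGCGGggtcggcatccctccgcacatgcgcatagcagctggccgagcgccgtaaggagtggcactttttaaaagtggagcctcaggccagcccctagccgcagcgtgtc
Cd274: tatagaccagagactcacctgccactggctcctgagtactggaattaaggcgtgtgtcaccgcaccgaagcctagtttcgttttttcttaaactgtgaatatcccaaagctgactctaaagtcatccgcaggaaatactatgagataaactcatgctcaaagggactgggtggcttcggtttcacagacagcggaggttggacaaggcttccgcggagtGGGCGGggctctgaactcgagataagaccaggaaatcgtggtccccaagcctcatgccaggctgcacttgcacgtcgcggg
Cd164: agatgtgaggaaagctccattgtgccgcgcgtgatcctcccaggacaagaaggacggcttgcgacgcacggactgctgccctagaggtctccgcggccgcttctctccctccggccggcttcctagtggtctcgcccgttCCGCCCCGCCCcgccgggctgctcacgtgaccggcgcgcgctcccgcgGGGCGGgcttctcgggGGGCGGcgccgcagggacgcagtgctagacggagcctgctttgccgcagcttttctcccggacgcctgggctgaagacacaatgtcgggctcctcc
Cd59a: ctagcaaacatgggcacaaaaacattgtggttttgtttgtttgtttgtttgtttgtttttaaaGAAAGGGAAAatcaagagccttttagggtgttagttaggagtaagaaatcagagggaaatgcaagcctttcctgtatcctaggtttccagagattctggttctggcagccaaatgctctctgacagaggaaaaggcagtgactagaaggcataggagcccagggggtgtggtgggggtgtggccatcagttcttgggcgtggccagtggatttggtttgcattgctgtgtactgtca

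On both strands 5 motifs were searched in 32851 windows of RefSeq promoters, which include those of 40 of the 60 genes. The kappaB motif, GGG and TTTCC with 2 bases of any kind between them, lay in 1.63% of windows. The ISRE motif, TTTC and TTTC with 2 such bases between them, lay in 3.44%, the AP-1 motif TGANTCA in 7.81%, the GAS motif TTCNNNGAA in 8.3% and the GC box GGGCGG in 35.7%. The Cd9 window held 1 kappaB match, whose first base is at -229 from the start, and 2 GC boxes. Cd274 held 1 GC box at -31, Cd164 held 4 and Cd59a held 1 ISRE match at -187. In the Cd164 window 2 of the GC boxes share a base, and no match overlapped one of another motif. GC content was 61.3% for Cd9, 52.7% for Cd274, 70% for Cd164 and 45.7% for Cd59a, around a median of 52.7% over all windows. These matches describe the letters and say nothing of binding.

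Cd24a encodes a small, heavily glycosylated protein anchored by lipid on B cells, granulocytes and epithelium. It had the lowest adjusted p among the antigens. Its level was 1.55, 1.60 and 2.33 on overventilation arrays 1 to 3, 0.47, 0.79 and 0.64 on the LPS arrays, and -0.04, 0.77 and -0.73 on the controls. All overventilation values lay above all others, and the LPS values lay within or just above the control range. The group means were 1.83 ± 0.44 for overventilation, 0.63 ± 0.16 for LPS and 0 ± 0.75 for control. The difference of overventilation from control was 1.83 with a standard error of 0.42, or 3.55-fold (adjusted p = 0.193). Without any 1 of the 9 arrays it ranged from 1.46 to 2.21.

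Cd24a is also an epithelial gene. Of the 10 tested epithelial markers, 2 lay wholly above the controls (20%, beside 9.14% of all probes). The list also had 1 wholly below (10%, beside 10.5%). Epcam, which encodes an epithelial adhesion molecule, was at 1.44, 1.34 and 1.12 on the overventilation arrays, 0.85, 0.84 and 1.26 on the LPS arrays and -0.04, 0.74 and -0.70 on the controls. Ager, a gene of alveolar type I cells, had a change of 2.27, with overventilation array 3 at 4.48 and the others at 1.19 and 1.14. The marker wholly below was Napsa, a gene of alveolar type II cells, with a change of -2.13. It was at -1.89, -2.53 and -1.98 after overventilation against 0.18, -0.17 and -0.01 in controls. Over the 10 tested epithelial markers the median change was 0.30, with array medians from -0.25 to 1.06 for overventilation and -0.19 to 0.15 for control. The part of epithelial RNA in the Cd24a value was not tested.

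The tetraspanin gene Cd9, whose protein acts in cell fusion, adhesion and vesicle release, was at or below the common floor on all 3 controls and above it on the 6 other arrays. Its deposited ratios were 3.43, 3.35 and 14.4 on the overventilation arrays, 3.58, 1.94 and 2.35 on the LPS arrays, and 1.41, 0.758 and 0.933 on the controls. After the values were raised to that floor, the levels were 1.13, 1.09 and 3.20 for overventilation and 1.19, 0.30 and 0.58 for LPS, with the controls at 0. Overventilation array 3 stood apart, as 1 of the 110 lone high probes of that array. The group mean of overventilation, 1.80 ± 1.20, was thus at least 3.49-fold that of the controls (adjusted p = 0.213), and that of LPS, 0.69 ± 0.45, at least 1.61-fold (adjusted p = 1). Without overventilation replicate 3 the log2 change was 1.11. The zero spread of the floored controls enters the limma estimate for this gene. Cd9 passed the filter for testing through overventilation and LPS arrays alone. Its lack of overlap with the controls, its p-values and its place in the counts therefore give no independent support for a difference.

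Cd274 encodes PD-L1, the ligand that restrains T cells through the PD-1 receptor and is induced by interferon in many cells. Its level was 1.34, 2.02 and 1.21 after overventilation, 0.89, 2.27 and 0.68 after LPS, and 0.13, 1.05 and -1.17 in controls. The overventilation arrays cleared the highest control narrowly, and 2 of 3 LPS arrays lay inside the control range. The difference from control was 1.52 with a standard error of 0.60 for overventilation (adjusted p = 0.275) and 1.28 with the same standard error for LPS (adjusted p = 1). Both comparisons use the same controls. Without control replicate 3 these differences were 0.94 and 0.69, and without LPS replicate 2 the difference of LPS from control was 0.78.

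Cd93, a lectin-like receptor of endothelium and myeloid cells, was at 0.55, 0.88 and 1.44 in overventilated lungs, at -0.69, 0.09 and 1.48 after LPS and at -0.44, 0.11 and 0.33 in controls. All overventilation values were above the controls, while the LPS values spread on both sides of them. The change was 0.95 with a standard error of 0.53 (adjusted p = 0.445). The sialomucin gene Cd164 was at 0.80, 0.56 and 0.92 after overventilation and at 0.35, 0.54 and -0.89 in controls. Nearest arrays of the groups were all but level. Its change was 0.76 with a standard error of 0.87 (adjusted p = 0.749), and 0.31 without control replicate 3.

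On the lower side, Cd1d1 encodes a molecule that presents lipids to natural killer T cells. It was at -1.74, -1.33 and -0.82 after overventilation, at 0.36, -0.78 and -1.40 after LPS and at 0.02, 0.43 and -0.46 in controls. All 3 overventilation arrays and 2 of 3 LPS arrays lay below the controls. The difference of overventilation from control was -1.30 with a standard error of 0.48, or 2.46-fold lower (adjusted p = 0.254). Without any 1 array it ranged from -1.54 to -1.08. The second gene of the pair, Cd1d2, lay at its own floor on 4 arrays and was not tested.

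Cd59a, a lipid-anchored inhibitor of the membrane attack complex of complement, was at the array's own floor on overventilation arrays 1 and 3 and nowhere else. Its deposited ratios were 0.153, 0.759 and 0.346 for overventilation, 0.771, 0.645 and 0.939 for LPS, and 0.879, 1.02 and 1.11 for control. After raising to the common floor its levels were -1.53, -0.40 and -1.53 against -0.19, 0.03 and 0.15 in controls, so the change of -1.15 (standard error 0.37, adjusted p = 0.216) is too small by an unknown amount. Without overventilation replicate 2 the change was -1.53 and passed (adjusted p = 0.0317). Both arrays left were then values set to the common floor, whose zero spread comes from the flooring and enters that test. The fit without replicate 2 also had the most passing probes of any alternative for overventilation against control. Over 16 alternatives the adjusted p of Cd59a lay between 0.0317 and 0.707. Arrays 1 and 3 also shared 139 probes that lay more than 1.5 below all other arrays, 2.43% of those tested, and no CD antigen was among them.

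Cd52, a short lipid-anchored peptide of lymphocytes and monocytes, was at -2.83, -0.74 and -0.57 after overventilation and at -0.44, 0.79 and -0.35 in controls. Overventilation array 1 carried much of the mean. The change was -1.38 with a standard error of 0.63 (adjusted p = 0.346), and -0.65 without overventilation replicate 1. After LPS Cd52 was at 0.05, -0.03 and -1.01, overlapping both other groups.

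**Figure D2:**
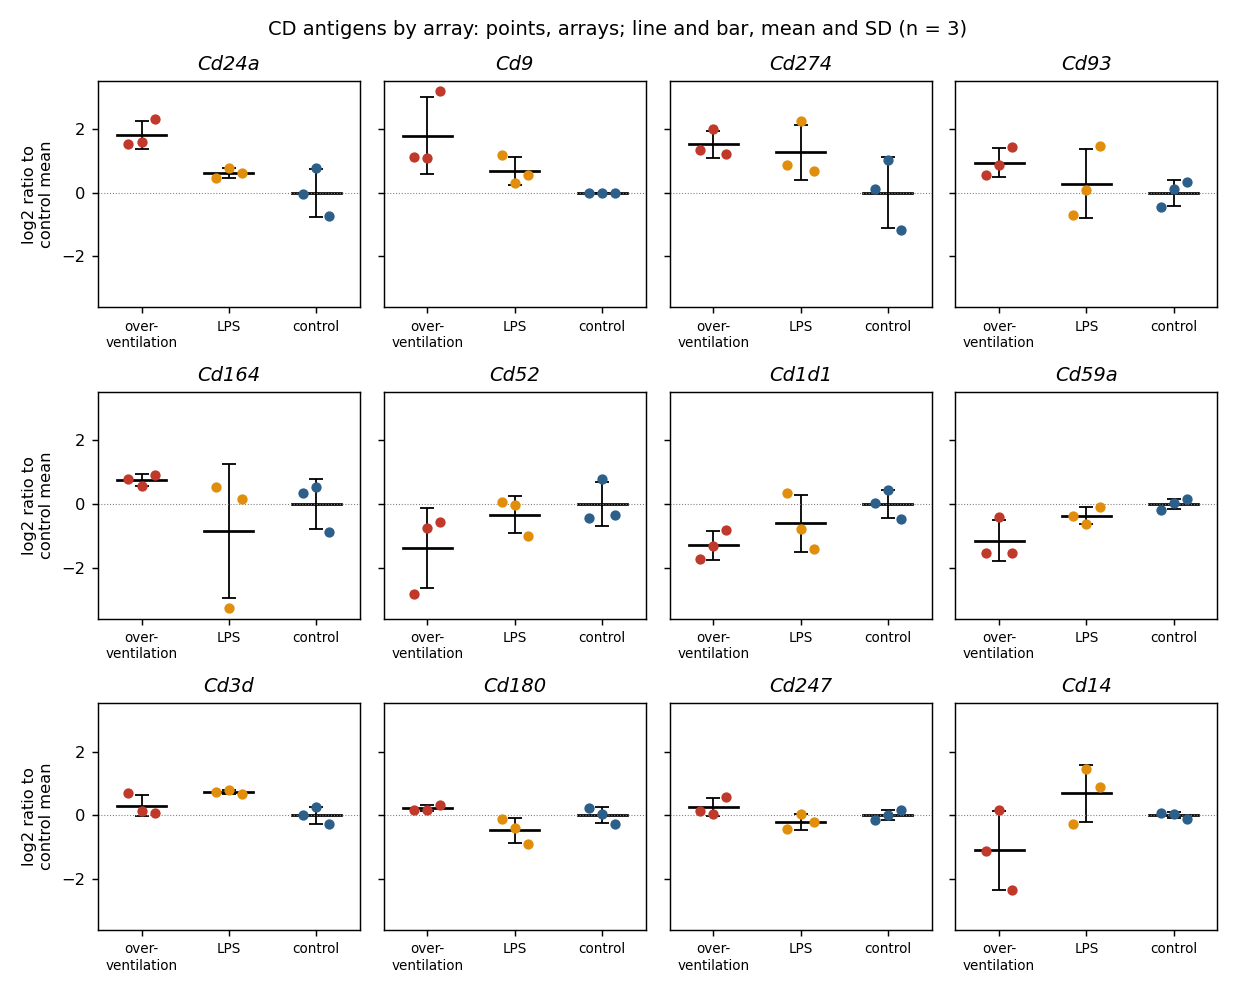
Points are single arrays of 12 CD antigens, on the log2 scale relative to the control mean, with a line at the group mean and bars of 1 SD (n = 3). The overventilation points of Cd24a (1.55 to 2.33) lie above every other point of that gene, and the controls of Cd9 stand at 0 because all 3 are at the common floor.

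Of 16 T and NK cell antigens on the array 11 were tested, 3 with a change above 0 and 8 below. All 11 overlapped between overventilated and control lungs, as did most probes, of which 9.14% lay wholly higher and 10.5% wholly lower. The median change was -0.19, beside -0.01 over all probes, and between -0.25 and -0.09 without any 1 array. The value nearest 0 came without control replicate 2, and the median was also closer to 0 by over 1.5 times without overventilation replicate 2 (-0.10) or 3 (-0.09). Cd3d, a chain of the T cell receptor complex, was at 0.68, 0.13 and 0.08 after overventilation against 0.00, 0.27 and -0.27 in controls. The other tested chain, Cd3g, was at -0.03, -0.01 and -1.09 against -0.84, 0.97 and -0.13. The third, Cd3e, was at the floor on all 9 arrays, as were Cd8a, the CD8 alpha chain, and Cd96, an adhesion receptor of T and NK cells. Cd4, the coreceptor of helper T cells, had -0.31, -0.31 and -0.49 against -0.51, 0.37 and 0.14.

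The lowest member of this class was Cd5, an inhibitory receptor of T cells. It was at -1.63, -0.65 and -1.25 in overventilated lungs, at 1.38, -1.12 and -0.21 after LPS and at -0.88, 0.95 and -0.06 in controls. One control, at -0.88, lay among the overventilation arrays, so the groups overlapped. Its change was -1.18 with a standard error of 0.66 (adjusted p = 0.445). The highest was Cd6, a relative of Cd5 that binds ALCAM, at 0.80 with a standard error of 0.44 (adjusted p = 0.433). Changes of the other members lay between these. They were 0.25 for the zeta chain gene Cd247, -0.09 for the ligand gene Cd40lg, -0.10 for Cd7, -0.19 for the NK receptor gene Cd244a, -0.28 for the adhesion receptor gene Cd2 and -0.44 for the costimulatory receptor gene Cd27. Of 6 tested T and NK cell markers without a CD symbol the median change was -0.33, with array medians of -0.36 to 0.21 for overventilation and -0.35 to 0.32 for control. Nkg7 and Prf1 of that list were at the floor throughout.

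B cell antigens were few. Cd79a, a signalling chain of the B cell receptor, was at -2.20, -0.22 and -0.53 after overventilation against -0.43, -0.47 and 0.07 after LPS and -0.37, 0.26 and 0.11 in controls. Its partner Cd79b was at 0.41, 0.61 and -0.08 against -0.14, 0.28 and -0.13. The change was -0.98 for Cd79a (standard error 0.50, adjusted p = 0.4) and 0.32 for Cd79b (standard error 0.33, adjusted p = 0.718). Without overventilation replicate 1, where Cd79a was a lone low probe, its change was -0.38. The inhibitory lectin gene Cd22 and the Toll-like receptor homologue gene Cd180 had changes of 0.22 each. The median over the 4 tested genes was 0.22, and -0.02 without control replicate 2. The B cell markers without a CD symbol had a median of -0.28 over 6 genes, with array medians of -0.48 to -0.18 for overventilation and -0.39 to 0.47 for control, and Blk and Fcrla at the floor on all arrays. Cd72 was above its own floor on 1 array and was not tested.

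Myeloid and antigen-presenting cell antigens lay on both sides of the controls. Of 11 tested genes 6 had a change above 0 and 5 below, with a median of 0.13, which was -0.21 without overventilation replicate 1. Cd14 was at -1.13, 0.15 and -2.35 after overventilation and at 0.07, 0.05 and -0.12 in controls. Overventilation array 2 lay above the controls and the other arrays below, for a change of -1.11 with a standard error of 0.62 (adjusted p = 0.446). Without overventilation replicate 3 it was -0.49, and without replicate 2 it was -1.74. Cd74, the invariant chain of MHC class II, was at 0.18, 1.16 and 2.88 against -0.29, 0.99 and -0.70, a change of 1.41 with a standard error of 0.74 (adjusted p = 0.415). Array 3 gave its highest value.

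Of the costimulatory ligands of antigen-presenting cells, Cd86 was at 0.82, -0.34 and -0.08 after overventilation against 0.09, 0.19 and -0.28 in controls, and Cd80 had a change of 0.16. Cd163, the haemoglobin scavenger receptor of macrophages, was at -0.38, 0.59 and 0.49 after overventilation, at -1.02, 0.63 and 0.28 after LPS and at -0.04, -0.19 and 0.23 in controls. Changes of -0.80 for the SLAM family receptor gene Cd84, -0.60 for the lectin gene Cd209c, -0.14 for the lectin gene Cd302 and 0.26 for the inhibitory receptor gene Cd200r1 were all with overlap. Cd209e, another lectin gene, had a change of 0.92 that rested on control array 1, at -1.82 against 0.82 and 1.00 on the other controls. Macrophage and monocyte markers without a CD symbol had a median of -0.35 over 11 genes, with array medians of -0.74 to -0.36 for overventilation and -0.58 to 0.85 for control. Changes were above 0 for 4 of them and below for 7. Lyz2 lay wholly above the controls (9.09% of the list, beside 9.14% of all probes). It was at 1.73, 1.19 and 4.77 after overventilation against 0.83, 0.03 and -0.86 in controls, a change of 2.56 (adjusted p = 0.265). Adgre1, a defining macrophage marker, was at the floor on all arrays. Neutrophil markers had a median of -0.76 over 4 genes, with Mmp9 at the floor, and array medians of -1.04 to -0.15 for overventilation and -0.61 to 0.51 for control. The part of these cells in the antigens' values was not tested. Of the 2 tested platelet markers Pf4 lay wholly above the controls, at a change of 1.41, and Ppbp wholly below, at -1.13. Medians were -0.80 over 2 red cell markers and -1.19 over 5 adipose markers. Of the adipose markers, Lpl (-0.98) and Retn (-2.21) lay wholly below the controls (40%, beside 10.5% of all probes). Retn was set to the common floor on all 3 overventilation arrays. Array medians of the adipose genes were -2.14 to -0.36 for overventilation and -1.66 to 0.91 for control.

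Endothelial and stromal antigens lay on the higher side in all 3 tested genes. Besides Cd93, Cd34 was at -0.26, 0.87 and 1.08 after overventilation, at 0.05, 0.27 and 0.55 after LPS and at -0.66, 0.56 and 0.11 in controls, and the pericyte and fibroblast gene Cd248 was at -0.43, -0.06 and 0.95 against -0.09, -0.14 and 0.23. The median change was 0.56, which was 0.97 without overventilation replicate 1 and 0.23 without control replicate 1. Array 1 was the lowest overventilation array for each of the 3. The scavenger receptor gene Cd36, which takes up fatty acids in capillary endothelium, exceeded the common floor on overventilation array 3 alone and was not tested. Above their own floors its values were 0.27, 1.15 and 1.03 on the overventilation arrays, 0.56, 0.63 and 0 on the LPS arrays and 0, 0.46 and 0 on the controls. The 10 tested endothelial markers had a median change of -0.04, with array medians of -0.21 to 0.17 for overventilation and -0.13 to 0.39 for control.

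Among the tetraspanins, Cd63, a protein of late endosomes and granules, was at 0.82, 0.17 and 1.85 after overventilation, at 0.65, 0.58 and -0.47 after LPS and at 0.67, 0.34 and -1.02 in controls. The groups overlapped and the change was 0.95 with a standard error of 0.57 (adjusted p = 0.484). It was 0.44 without control replicate 3 and 0.49 without overventilation replicate 3. Cd81, a tetraspanin of many cell types, was at 0.84, -0.32 and -0.33 after overventilation, at 0.80, -0.25 and -0.20 after LPS and at 1.35, -1.60 and 0.25 in controls, so that its controls spanned all other arrays. The leukocyte tetraspanin genes Cd53 and Cd37 had changes of 0.31 and -0.20. Cd82 stayed at the floor throughout, and Cd151, a partner of laminin-binding integrins, was above its own floor on LPS array 2 alone. The median over the 5 tested tetraspanins was 0.31, and 0.80 without overventilation replicate 1.

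The remaining broadly expressed antigens gave no separation. Cd55, which speeds the decay of complement convertases, was at 1.89, 0.12 and 0.14 after overventilation against 1.31, -1.46 and 0.15 in controls. Cd47, a signal that restrains phagocytes, was at 0.49, 0.22 and -0.60 after overventilation, at 1.36, 0.55 and -0.43 after LPS and at 0.86, -0.53 and -0.33 in controls, a change of 0.04 with a standard error of 0.54. The 7 tested genes put in this class were Cd24a, Cd274, Cd164, Cd52, Cd59a, Cd55 and Cd47. Their median change was 0.71, and -0.01 without control replicate 2. Cd52, although described above for lymphocytes and monocytes, was counted here and in none of the leukocyte classes.

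**Figure D3:**
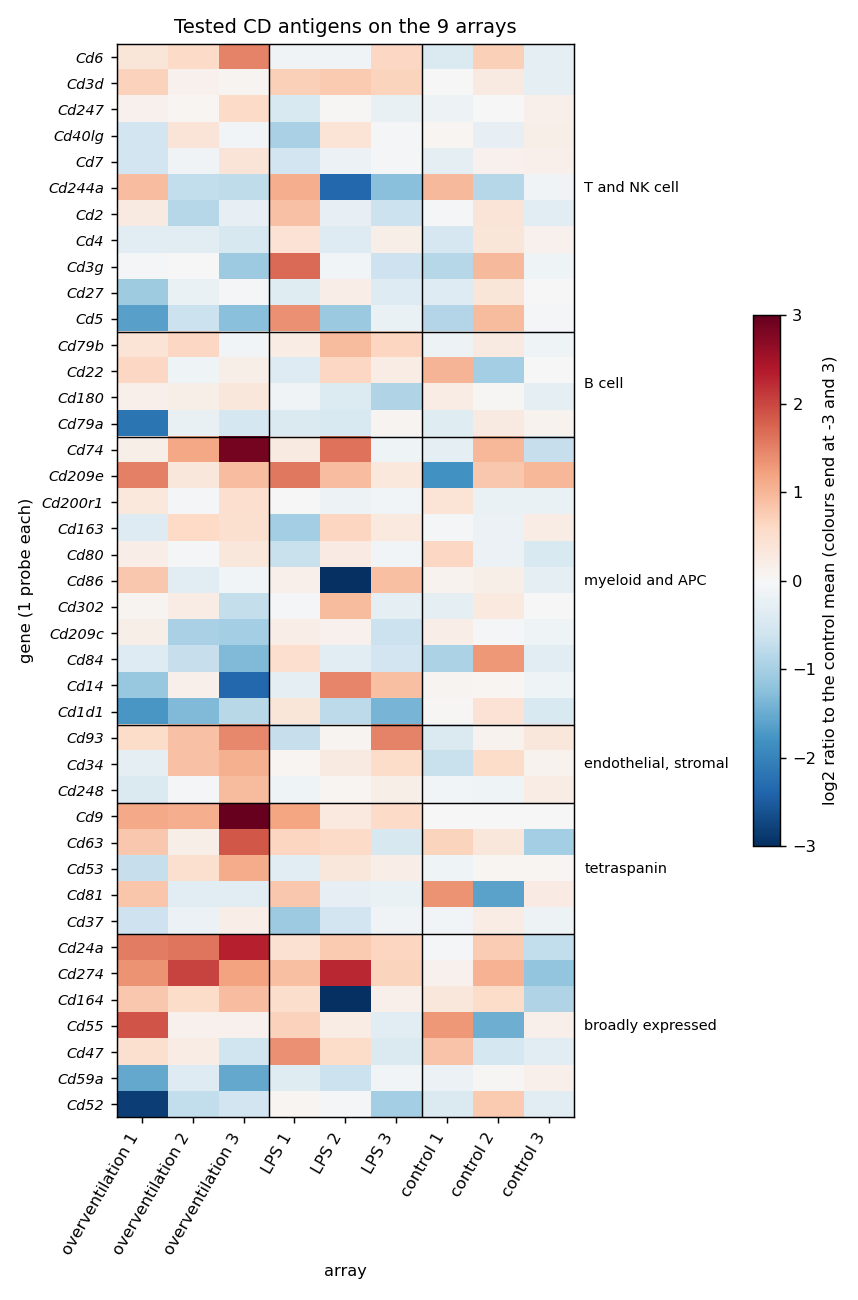
Colours give the log2 ratio to the control mean for the 41 tested CD antigens (rows, by class) on the 9 arrays (columns). Red marks a value above the control mean and blue one below. Cd86 and Cd164 are dark blue on LPS array 2 alone, at -3.20 and -3.28, and Cd9 and Cd74 are darkest on overventilation array 3, at 3.20 and 2.88.

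LPS against control asks what injected endotoxin alone changes. Cd3d and Cd9 lay above the controls on all 3 LPS arrays, and no antigen lay below on all 3. These were 4.88% of the 41 antigens, against 2.24% of all probes wholly higher and 4.08% wholly lower. By limma no antigen passed (adjusted p = 1 for each) and none of all probes (0%), with 1 antigen, Cd3d, at an unadjusted p under 0.05, or 2.44%, beside 2.07% of all probes. Of all probes, 0.998% were higher and 1.07% lower at that level. With the replicate number as a block there were 3 such antigens, Cd3d, Cd79b and Cd274, each with an adjusted p of 0.826, while the share of all probes at that level was 5.5%. The median change was 0.04 over the antigens and -0.05 over all probes.

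Cd3d was at 0.72, 0.78 and 0.67 after LPS against 0.00, 0.27 and -0.27 in controls. The LPS arrays lay close together and clear of the controls, for a change of 0.72 with a standard error of 0.30, or 1.65-fold. The arrays of the other 10 T and NK cell antigens overlapped those of the controls. Cd3g was at 1.71, -0.08 and -0.62, Cd4 at 0.43, -0.38 and 0.17, and Cd5 had a change of 0.02. The median over the 11 T and NK cell antigens was 0.00. Icos, a T cell costimulator named by another symbol, was at 0.78, 0.76 and 1.23 after LPS against -0.40, 0.45 and -0.05 in controls. It was the leukocyte gene of that list without overlap (5.26% of 19, beside 2.24% of all probes wholly higher). Among the marker lists the adipose genes had the lowest median for LPS against control, -2.09 over 5 genes. Adipoq (-3.32) and Retn (-2.09) lay wholly below the controls (40% of the list, beside 4.08% of all probes). Both cleared control array 3 narrowly. Adipoq was at -1.93 on LPS array 3 and -1.66 on control array 3, and Retn at -1.95 and -1.89. Retn was set to the common floor, at -2.21, on LPS array 2 and lay close to it on LPS array 1, at -2.12. The size of its change is therefore limited by that floor. Array medians of the adipose genes were -2.21 to -1.21 after LPS and -1.66 to 0.91 in controls. The part of adipose tissue in the antigens' values was not tested.

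Cd14 was at -0.29, 1.46 and 0.90 after LPS, with 2 of 3 arrays above the controls and the other below. Its change was 0.69 with a standard error of 0.62, and 1.18 without LPS replicate 1 or 0.31 without LPS replicate 2. Cd79b was at 0.23, 0.95 and 0.64, a change of 0.61 with a standard error of 0.33, its lowest LPS array just under its highest control. Cd180 and the tetraspanin gene Cd37 had the lowest changes of the B cell and tetraspanin classes, at -0.47 and -0.59. Cd86 was at 0.16, -3.20 and 0.90, and Cd164 at 0.54, -3.28 and 0.16. Both were lone low probes of LPS array 2, and without LPS replicate 2 the change of Cd86 was 0.53 in place of -0.71 and that of Cd164 0.35 in place of -0.86.

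Overventilation against LPS sets both injuries side by side. Cd164, Cd24a, Cd180 and Cd247 were higher on all 3 overventilation arrays than on any LPS array, and none was lower. That is 9.76% of the antigens, against 5.73% of all probes wholly higher and 5.46% wholly lower. None passed limma's test over all probes (lowest adjusted p = 0.494), in which 0% of probes passed. At an unadjusted p under 0.05 there were 3, or 7.32%, beside 9.51% of all probes. Of all probes, 3.57% were higher and 5.94% lower at that level. They were Cd24a and Cd180 on the higher and Cd14 on the lower side.

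Cd24a was 2.29-fold higher after overventilation than after LPS (log2 difference 1.20, standard error 0.42). Cd180 was at 0.16, 0.17 and 0.33 against -0.11, -0.42 and -0.90, with controls at 0.23, 0.04 and -0.27, a difference of 0.70 with a standard error of 0.31. Cd247 was at 0.12, 0.05 and 0.58 against -0.45, 0.03 and -0.22, with controls at -0.14, 0.00 and 0.15, and the nearest arrays of overventilation and LPS were all but level. The difference of Cd164 was 1.62, and 0.41 without LPS replicate 2.

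Cd14 had the lowest difference, -1.80 with a standard error of 0.62, or 3.49-fold lower after overventilation than after LPS (adjusted p = 0.494). The groups overlapped, since overventilation array 2, at 0.15, lay above LPS array 1, at -0.29. Without overventilation replicate 2 the difference was -2.43 and passed narrowly (adjusted p = 0.04997). Replicate 2 was the array that made the groups overlap. The fit without it had the most passing probes of any alternative for this comparison, so the pass is not particular to Cd14. Over 16 alternatives the adjusted p lay between 0.04997 and 0.999.

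**Figure D4:**
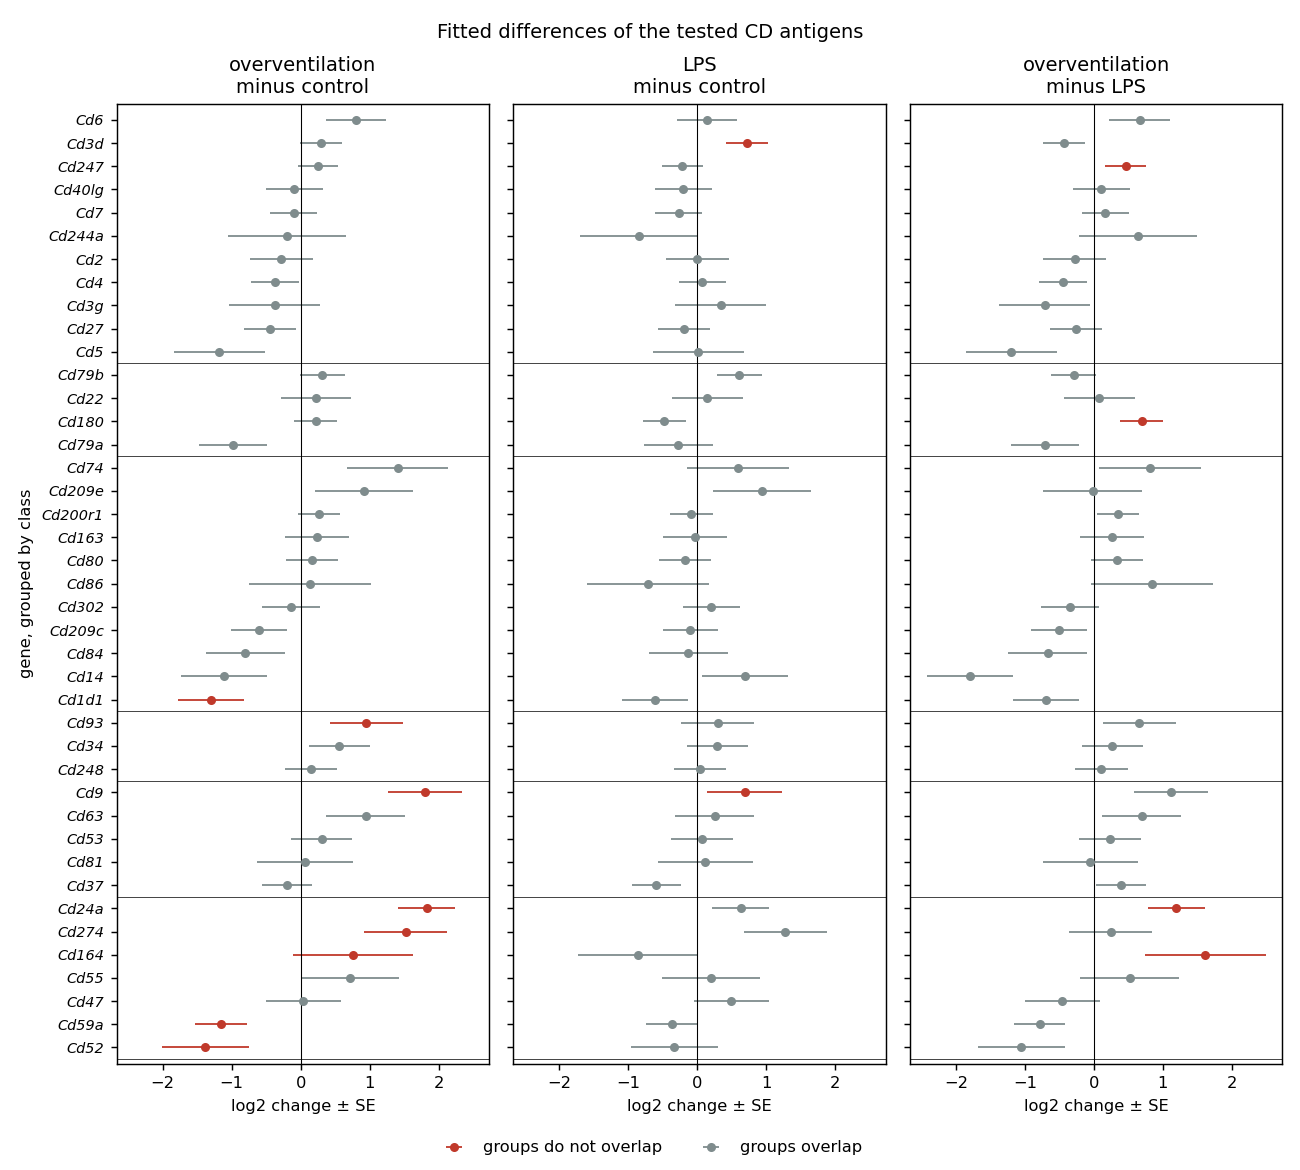
Fitted log2 differences of the 41 tested CD antigens with standard errors, for overventilation minus control, LPS minus control and overventilation minus LPS. Red points are genes whose arrays do not overlap between the groups, 8 in the first panel, 2 in the second and 4 in the third.

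A moderated F test over the 3 groups gave 4 antigens at an unadjusted p under 0.05, Cd24a, Cd9, Cd59a and Cd14. They were 9.76% of the 41, beside 10.4% of all probes, and none passed after adjustment (lowest adjusted p = 0.424, 0% of all probes). Arrays of a group varied somewhat more in these genes than in others. The median SD within groups was 0.60 over the antigens and 0.53 over all tested probes. It ran from 0.23 for Cd247 and 0.25 for Cd3d to 1.30 for Cd164 and 1.32 for Cd86.

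Of the 19 antigens left untested, 5 were at the floor on all 9 arrays: Cd3e, Cd8a, Cd96, Cd82 and Cd46, a complement regulator. The other 14 exceeded their own floor on 1 to 7 arrays. Cd70, the ligand of CD27, was farthest above it on LPS array 3, by 0.93, and Cd83, a marker of mature dendritic cells, exceeded it on overventilation array 2 by 0.21 and LPS array 2 by 0.14. Cd8b1, the CD8 beta chain, was at most 0.17 above. Cd28, the T cell costimulator, Cd55b and Cd320, a vitamin carrier receptor, were farthest above on control array 1, as was the lectin gene Cd209g, and Cd33, a sialic acid binding lectin, on control array 3. Cd5l, a protein secreted by macrophages, exceeded it on 7 arrays by at most 0.40, and Cd200, an inhibitory ligand, on 1. Cd44, Cd68 and Cd69 were not analysed here.

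Many CD antigens go by another symbol, and those of endothelium and leukocytes were taken as further lists. Of 13 tested endothelial ones, 12 had a change above 0 for overventilation against control, beside 2820 of all 5710 tested probes. The median was 0.61, while it was -0.04 over the 10 tested endothelial markers. These lists are not separate, since Kdr, Tek and Tie1 were tested in both. Vcam1, F3 and Selp lay wholly above the controls (23.1%, beside 9.14% of all probes) and Bst1, an ectoenzyme, wholly below (7.69%, beside 10.5%). Vcam1 encodes the endothelial ligand of leukocyte integrin VLA-4. It was at 1.54, 2.27 and 3.45 after overventilation, at 0.16, 1.55 and 1.06 after LPS and at -0.17, 0.77 and -0.60 in controls. The change was 2.42 with a standard error of 0.57 (adjusted p = 0.193), above that of every Cd gene. Selp, the P-selectin of platelets and endothelium on which leukocytes roll, was at 1.10, 1.04 and 0.81, at -0.60, 1.60 and 0.90 and at 0.25, -0.14 and -0.12 in the same order, a change of 0.98 (adjusted p = 0.4). F3, tissue factor, had a change of 2.28 (adjusted p = 0.201). Sele, E-selectin, was at 0.22, 0.00 and 2.29 after overventilation, so that array 3 stood alone.

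Of the 19 leukocyte genes with another symbol, 10 had a change above 0 and 9 below, with a median of 0.04. Ly9, a SLAM family receptor, and Cr2, a complement receptor of B cells, lay wholly above the controls, with changes of 0.98 and 0.40. They were 10.5% of the 19, beside 9.14% of all probes. The chemokine receptor gene Cxcr4 and the receptor gene of granulocyte colony-stimulating factor, Csf3r, lay wholly below, again 10.5%, the same share as over all probes. Cxcr4 was at -0.51, -0.71 and -1.65 after overventilation against 0.59, -0.14 and -0.45 in controls (change -0.96, adjusted p = 0.318). Csf3r was at -0.61, -0.91 and -1.24 against 0.50, -0.37 and -0.13 (change -0.92, adjusted p = 0.301). Ctla4, Ccr7 and Fcgr2b were at the floor on all arrays. Against LPS, Cr2 lay wholly higher after overventilation (5.26% of the 19 leukocyte genes, beside 5.73% of all probes). Cxcr4 and Icos lay wholly lower (10.5%, beside 5.46%), as did Bst1 among the endothelial genes (7.69%).

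**Figure D5:**
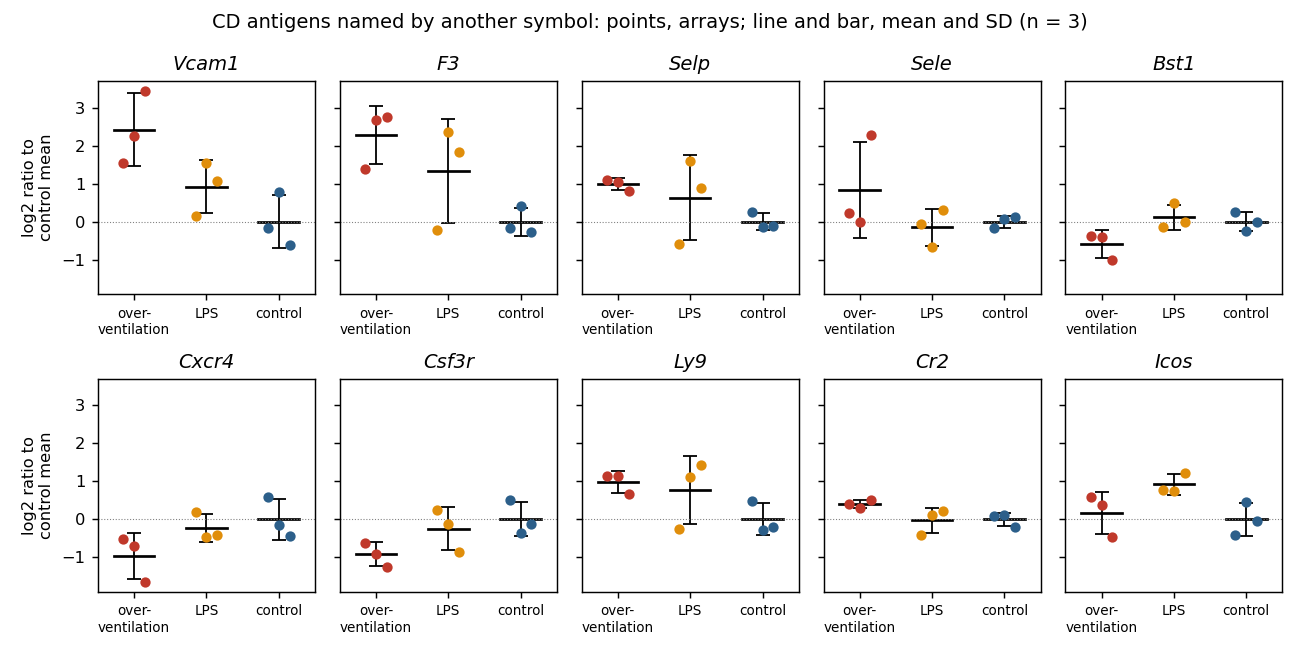
Points are single arrays of 10 genes for CD antigens that carry another symbol, on the log2 scale relative to the control mean, with the group mean and bars of 1 SD (n = 3). Vcam1 after overventilation (1.54 to 3.45) lies above its controls (-0.60 to 0.77), and 1 of 3 overventilation points of Sele stands apart at 2.29.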

How the data were processed

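Values of 10012 probes on 9 arrays were used as deposited. They are ratios on a linear scale, and what the authors did to make them is not given in the sources used here. In every probe the mean log2 control value is 0 (largest deviation 2.49e-09), so each deposited ratio is relative to the control geometric mean. The most frequent row of values gave each array's floor. A probe whose lowest values followed that row on 2 or more arrays (tolerance 1e-06 on the log2 scale) was taken to be at the floor there, which held for 4690 probes. For these, the distance above the probe's own floor was added to the array's floor. The sums were raised to the highest floor, a ratio of 2.22, and recentred. A deposited ratio can therefore lie under 2.22 and still be above the common floor. A probe was tested if above it on 3 or more arrays or if its floor was unknown.

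The test was that of limma (version 3.58.1, R 4.3.3), with 3 group means fitted on all 9 arrays, eBayes and two-sided p-values, with Benjamini-Hochberg adjustment over 5710 probes and a threshold of 0.05. The code was tested on simulated data. Depth has no counterpart on these arrays, whose number limits the precision. Symbols came from the platform annotation, and the gene IDs of all 60 antigens were found in the reference gene table. It names 1 symbol at 8983 probes, more than 1 at 1 probe, and leaves 1028 without. Each antigen has 1 probe. Antigens were given array by array if their arrays did not overlap in a comparison (up to 6 a direction) or if they were on a list of usual cell markers. For listed genes with another symbol, up to 3 a direction without overlap were named. Sele was added after its values were seen. The antigens, classes, lists and rules were chosen with earlier results of these data known.

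Replicate numbers are shared by the groups. Deviations of same-numbered arrays from their group means correlated at 0.497, 0.247 and 0.199 for LPS and control, at 0.508, 0.133 and 0.0334 for overventilation and control, and at 0.496, 0.211 and 0.0383 for overventilation and LPS. Every correlation exceeds 0.1 for LPS and control alone, and no label says that the numbers pair arrays. The fit reported has no block in any comparison, and the block is an alternative. Alternatives were no filter, values as deposited, an offset of 1, quantile normalization, array weights, the replicate block, each array left out, and, chosen after seeing the data, median centring.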

Additional observations from a re-analysis of the deposited data

How the results depend on the processing

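No antigen and no probe passed the threshold in any of the 3 comparisons or the F test with no filter, values as deposited, an offset, quantile normalization, array weights, the replicate block or median centring (counts of 0 each). With single arrays left out, the count of probes past the threshold ranged from 0 to 290 for overventilation against control, from 0 to 1 for LPS against control, from 0 to 226 for overventilation against LPS and from 0 to 200 for the F test. The highest count came without overventilation replicate 2 in each but LPS against control, where it came without control replicate 3. The count of antigens ranged from 0 to 1 for overventilation against control (Cd59a) and from 0 to 1 for overventilation against LPS (Cd14), and was 0 throughout for LPS against control and the F test. Antigens at an unadjusted p under 0.05 for overventilation against control numbered 3 higher and 2 lower (14.9% of all probes in either direction), 4 and 4 with the replicate block (21% of all probes), and 2 and 1 with quantile normalization (7.02%), so the counts moved with the share of all probes. The antigens that lay clear of the other group kept the sign of their change under all 16 alternatives tried for each. This is largely fixed by their choice. Where groups do not overlap, leaving out an array, array weights or an offset cannot reverse the sign. Leaving out Cd5l, the 1 antigen named as like another, changed no median, as it was not tested. A second probe could not be tried because each antigen has 1 probe. An offset lowered the changes, that of Cd24a to 1.16 and that of Cd274 to 0.89. The floor limits what can be seen of at least 21 of the 60 antigens, 19 of them untested. For the other 39, all tested, no floor was located. A value at the floor on 1 array alone would not have been recognised there.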
